A study of Mus musculus with 4 samples.

Results

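The transcripts described here are those of the insulin-like growth factor IGF1, its receptor IGF1R and 6 IGF-binding proteins, in mouse embryonic fibroblasts given reprogramming factors. The members were given by symbol (Igf1, Igf1r, Igfbp2, Igfbp3, Igfbp4, Igfbp5, Igfbp6 and Igfbp7) and matched to Ensembl identifiers, and all 8 were found among 27597 listed genes. The fibroblasts came from the skin of OGXICR D13.5 embryos, with limbs, tail and epidermis removed, and were infected with a doxycycline-inducible lentiviral system. The OSKM group received OCT4, SOX2, KLF4 and c-MYC. The G3SKM group received GATA3 in place of OCT4, with the same SOX2, KLF4 and c-MYC. The SKM group received SOX2, KLF4 and c-MYC alone, and the control group an empty vector. How long the factors acted before RNA extraction was not stated in the labels. Per the labels each library holds 2 replicates, and 1 value per gene and group is given for them together, so the spread between replicates is unknown and nothing could be tested. In bulk RNA, fewer cells of a type and less RNA per cell cannot be told apart.

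IGF1 and IGF2 are secreted growth factors that activate the receptor tyrosine kinase IGF1R, which signals through IRS adaptors to the PI3K and AKT kinases and through SHC to the MAP kinases. Most of the IGF in tissue fluid is held by IGF-binding proteins, which keep the ligand from the receptor, prolong its life or release it when proteases cut them. Fibroblasts make IGF2 and several binding proteins, and some of these also attach to matrix or to integrins independently of IGF.

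Values are RPKM as deposited unless the exon-length scale is named. The deposited RPKM (reads scaled to gene length and library size) divide by the whole gene span, introns included, so genes with long introns have low values. Igfbp7, with 58802 bases of gene and 1209 of exon, and Igf1r, with 280842 and 16791, are the members most lowered by this. Levels of different genes are therefore set side by side after rescaling to exon length. Calls rest on size alone: with 1 RPKM added to each value, the log2 ratio had to reach 1 upwards (higher) or downwards (lower). Only genes reaching 1 RPKM in either group of a pair were considered, which is the filter below. Log2 ratios in the text include the added 1 RPKM. Fold changes are ratios of RPKM with nothing added, and bounds in brackets are 95% Clopper-Pearson intervals on recovered reads, which cover counting error only.

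Depth recovered from the values, in units of 1000000 reads, was 74.7 for OSKM, 101.5 for G3SKM, 54.0 for SKM and 111 for empty vector. All 12 fibroblast markers on the list used were at 1 exon-length RPKM or more in the empty vector group. SKM differed from the remaining libraries in its relation to transcript GC content. The rank correlation (Spearman's rho, over genes, which are not independent) of log2 ratio with GC was 0.514 for SKM against empty vector and -0.728 for OSKM against SKM, but 0.0646 for OSKM against empty vector. Comparisons that contain SKM are therefore also given after removal of the GC trend, and OSKM and G3SKM are also compared with empty vector directly.

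The 250 bases before the transcription start are shown for members with large differences between groups. Igfbp5 had the largest fall, Igfbp7 is the most abundant member and was called lower in OSKM and G3SKM against empty vector, Igfbp3 was called higher in OSKM than in empty vector, and Igfbp2 is the neighbour of Igfbp5. Sequences are RefSeq promoters of GRCm38.p6, read 5′ to 3′ on the gene's strand, and all 8 members had an entry (for Igfbp2, the first of its entries is shown). Capitals mark matches, on either strand, to 8 motifs. These were the TATA box with letters TATAAA, the run TTTAAA that resembles it, the TEAD motif CATTCC, the E-box CACGTG of MYC and MAX, the SOX motif CATTGT, the octamer ATGCAAAT of OCT factors, the GATA motif AGATAA and the GC box GGGCGG of SP and KLF factors.
Igfbp5, chr1:72874866-72875115, minus strand: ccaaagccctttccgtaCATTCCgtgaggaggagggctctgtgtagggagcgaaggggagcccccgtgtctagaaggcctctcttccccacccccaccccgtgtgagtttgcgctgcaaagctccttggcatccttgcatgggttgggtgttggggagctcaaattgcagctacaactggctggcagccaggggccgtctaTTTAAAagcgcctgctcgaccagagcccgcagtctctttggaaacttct
Igfbp7, chr5:77408046-77408295, minus strand: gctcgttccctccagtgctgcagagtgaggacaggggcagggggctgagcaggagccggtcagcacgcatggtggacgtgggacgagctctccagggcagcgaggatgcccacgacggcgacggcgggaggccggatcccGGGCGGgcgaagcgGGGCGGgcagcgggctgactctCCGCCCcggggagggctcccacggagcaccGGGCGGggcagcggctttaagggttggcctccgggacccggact
Igfbp3, chr11:7213924-7214173, minus strand: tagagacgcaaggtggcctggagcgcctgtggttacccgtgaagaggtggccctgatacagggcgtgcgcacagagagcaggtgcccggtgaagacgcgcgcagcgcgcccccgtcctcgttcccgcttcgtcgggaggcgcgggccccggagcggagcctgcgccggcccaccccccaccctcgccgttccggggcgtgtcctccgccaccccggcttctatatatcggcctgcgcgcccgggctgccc
Igfbp2, chr1:72824230-72824479, plus strand: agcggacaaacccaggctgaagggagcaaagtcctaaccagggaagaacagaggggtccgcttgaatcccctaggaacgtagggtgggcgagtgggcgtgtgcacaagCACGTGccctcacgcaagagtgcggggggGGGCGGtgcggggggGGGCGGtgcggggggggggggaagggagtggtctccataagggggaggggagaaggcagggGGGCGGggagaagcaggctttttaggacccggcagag

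In these windows Igfbp5 held 1 TEAD and 1 match that resembles a TATA box, Igfbp7 held 4 GC boxes, Igfbp2 held 1 E-box and 3 GC boxes, and Igfbp3 held none of the 8 motifs. Of 32851 promoter windows of the same length, 12.6% held the TEAD letters, 12.1% the letters that resemble a TATA box, 6.02% the E-box and 32.7% the GC box. None of the 4 windows held the SOX, octamer or GATA letters searched. The other Igfbp2 entry, which is not shown, held none of the 8 motifs. A match is a description of the letters only. Igfbp2 and Igfbp5 lie end to end on chromosome 1, transcribed towards each other with 5457 bases between their ends, and Igfbp3 lies beside Igfbp1 on chromosome 11, with 3539 bases between them.

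On the exon-length scale Igfbp7 was the most abundant member in every group, at 106 RPKM in OSKM, 110 in G3SKM, 189 in SKM and 364 in empty vector. IGFBP7 binds insulin and, more weakly than its relatives, IGF, and is a secreted matrix-associated protein. Among 18318 protein-coding genes it ranked 303 in OSKM, 292 in G3SKM, 160 in SKM and 71 in empty vector. Igfbp2 came next in all 4 groups, and Igf1 was the lowest member in all 4. In OSKM the counting intervals of 3 pairs of neighbours in this order overlapped, those of Igfbp2 with Igfbp6, of Igfbp3 with Igfbp4 and of Igfbp5 with Igf1r.

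The 6 binding protein transcripts summed to 171 exon-length RPKM in OSKM, 213 in G3SKM, 334 in SKM and 456 in empty vector. Igfbp7 made up 61.7% of that sum in OSKM, 51.5% in G3SKM, 56.4% in SKM and 80.0% in empty vector. Igfbp2 made up 11.2% in OSKM, 24.4% in G3SKM, 19.4% in SKM and 5.89% in empty vector. The share of Igfbp5 was 2.20% in OSKM, 0.868% in G3SKM, 0.516% in SKM and 5.50% in empty vector, while that of Igfbp3 was 7.05%, 1.87%, 1.86% and 0.856% in the same order. The factor-treated groups thus had lower sums and smaller Igfbp7 shares than empty vector. Without Igfbp7 the other 5 summed to 65.5 exon-length RPKM in OSKM, 103.3 in G3SKM, 145.8 in SKM and 91.4 in empty vector, so that this sum was lower in OSKM and higher in G3SKM and SKM. OSKM had the largest share of Igfbp3. The sums and shares were taken without GC removal. Transcripts of Igfbp2 and Igfbp6, at 59.2% and 60.7% GC, lie where genes as a whole stood higher in SKM. Their exon-length log2 ratios for SKM against empty vector moved from 1.24 and 1.25 to 0.69 and 0.71 after GC removal. Rescaling assumes that reads came from exons. For Igfbp7, whose span is 48.6 times its exon length, reads from introns would count towards these levels, and this was not tested.

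**Figure D1:**
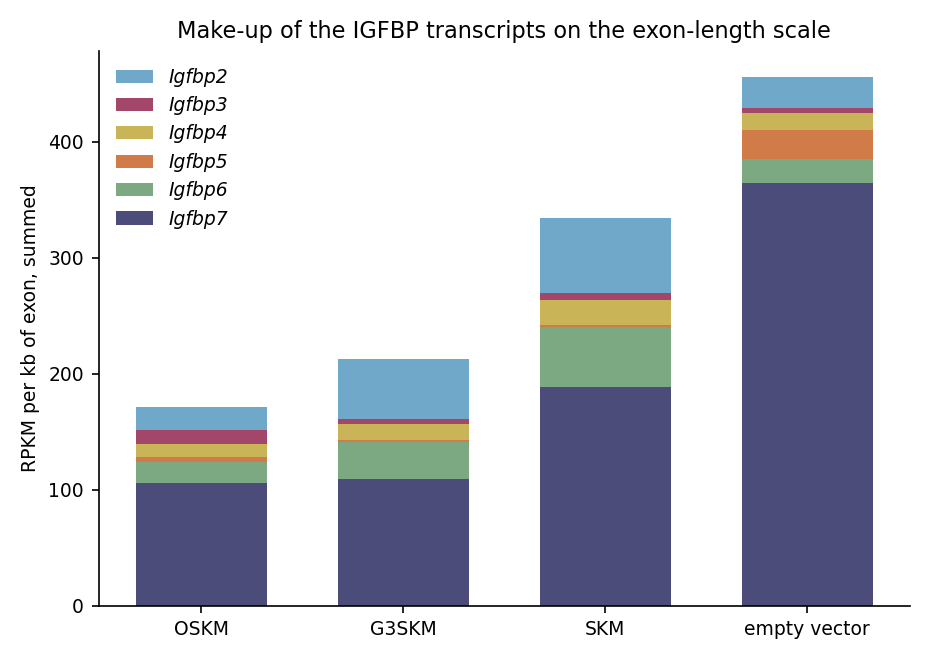
Stacked exon-length RPKM of the 6 IGF-binding protein transcripts (vertical axis) in the 4 groups. Igfbp7 is the largest segment in each bar, and the summed bars stand at 171 in OSKM, 213 in G3SKM, 334 in SKM and 456 in empty vector.

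The ligand Igf1 was the lowest member in all groups. Its deposited values were 0.0802 RPKM in OSKM, 0.0939 in G3SKM, 0.0723 in SKM and 0.114 in empty vector, from 472, 751, 308 and 1002 reads in the same order. All 3 factor-treated groups were lower than empty vector, by 1.43-fold (1.28 to 1.60) in OSKM, 1.22-fold (1.11 to 1.34) in G3SKM and 1.58-fold (1.39 to 1.80) in SKM. The Igf1 transcript has 43.6% GC. Genes of such GC as a whole stood lower in SKM than in empty vector, with a median exon-length log2 ratio of -0.36 near 43.2% GC. GC removal cannot decide whether the directions given for Igf1 hold. The added 1 RPKM is above the Igf1 values on both scales and draws the log2 ratios towards 0. The trend taken off them came from genes past the filter. The deposited-scale log2 ratios against empty vector turned from -0.05 to 0.05 in OSKM, from -0.03 to 0.06 in G3SKM and from -0.06 to 0.45 in SKM. On exon length with GC removed they were -0.16, -0.05 and 0.20 in the same order. Igf1 stayed under the filter in every comparison, on the exon-length scale too. A listed antisense gene, Igf1os, overlaps it by 5117 bases, and reads of the gene and its antisense partner cannot be told apart without strand. Macrophages also make Igf1, and the summed level of 12 macrophage markers was 5.44 exon-length RPKM in OSKM, 11.01 in G3SKM, 13.8 in SKM and 122 in empty vector. Of those markers 3 were at 1 exon-length RPKM or more in each factor-treated group and 10 in empty vector. Their part in the Igf1 values was not tested.

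The receptor Igf1r was at 0.218 RPKM in OSKM, 0.173 in G3SKM, 0.211 in SKM and 0.301 in empty vector, or 3.65, 2.90, 3.53 and 5.04 exon-length RPKM in the same order. Empty vector was the highest group and G3SKM the lowest. G3SKM was 1.22-fold lower than SKM (1.16 to 1.27), and OSKM over SKM was a ratio of 1.03 whose interval includes no change (0.988 to 1.08). Against empty vector the receptor was 1.38-fold lower in OSKM (1.33 to 1.43), 1.74-fold lower in G3SKM (1.68 to 1.80) and 1.43-fold lower in SKM (1.37 to 1.49). For SKM the log2 ratio of Igf1r went from -0.10 to 0.02 after GC removal on the deposited scale. These values lie well under the added 1 RPKM, so this turn of sign does not show a change of direction. On exon length, where Igf1r passed the filter, the log2 ratio was -0.42 before and -0.36 after GC removal. Igf1r passed the rule in no comparison, and stayed under the filter on the deposited scale.

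**Figure D2:**
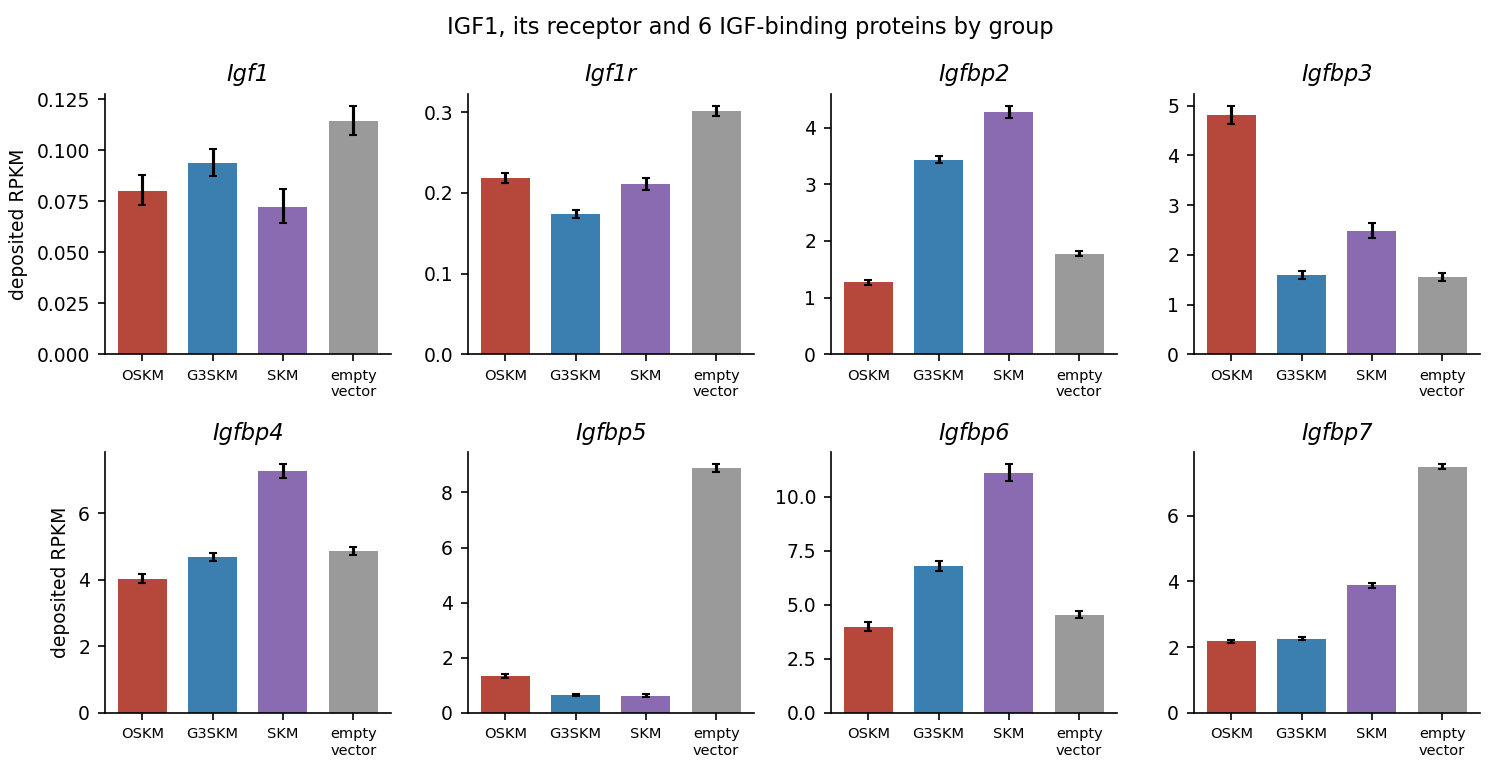
Deposited RPKM of the 8 members (vertical axes, each from 0) in the 4 groups, with 95% counting intervals as error bars. Igfbp5 and Igfbp7 were highest in empty vector, Igfbp2, Igfbp4 and Igfbp6 in SKM, and Igfbp3 in OSKM.

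The first comparison sets delivery of the 3 shared factors against an empty vector (SKM against empty vector). Transcripts of Klf4 and Myc were also present in empty vector, at 6.26 and 16.0 RPKM, against 19.3 and 11.9 in SKM. Sox2 was at 0.260 RPKM in empty vector and 187 in SKM. Of 6 members past the filter, Igfbp6 was higher and Igfbp5 lower, where 8.88% of all genes tested were higher and 5.98% lower. IGFBP5 binds extracellular matrix and is made by fibroblasts and by differentiating muscle and bone cells. It was at 0.611 RPKM in SKM and 8.88 in empty vector, from 560 reads and 16736 reads. The fall was 14.5-fold (13.4 to 15.8), and the log2 ratio of -2.62 was -2.60 after removal of the GC trend.

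IGFBP6, which prefers IGF2 over IGF1, was at 11.1 RPKM in SKM and 4.55 in empty vector, 2.44-fold higher (2.32 to 2.57). Igfbp2, a binding protein prominent in fetal tissue, was at 4.28 RPKM in SKM and 1.77 in empty vector, 2.41-fold higher (2.33 to 2.50). Its log2 ratio was 0.93, under the rule. On the exon-length scale both passed, at 1.25 for Igfbp6 and 1.24 for Igfbp2, where 11.9% of all genes tested were higher and 7.15% lower. The transcripts of both are rich in GC, at 60.7% and 59.2%, and genes of such GC stood higher in SKM as a whole. After removal of that trend on the deposited scale the log2 ratios were 0.69 for Igfbp6 and 0.51 for Igfbp2, both under the rule, where 5.69% of all genes were higher and 4.41% lower. Igfbp7 went the other way, at 3.88 RPKM in SKM and 7.49 in empty vector, 1.93-fold lower (1.89 to 1.97). Its log2 ratio of -0.80 was under the rule, and it passed at -1.22 once the GC trend was removed.

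Igfbp4, a binding protein that the protease PAPP-A cuts, was at 7.27 RPKM in SKM and 4.87 in empty vector, with a log2 ratio of 0.49. Igfbp3, the main carrier of IGF in serum, was at 2.49 RPKM in SKM and 1.56 in empty vector, with a log2 ratio of 0.45. After removal of the GC trend these were 0.18 and 0.21. The median log2 ratio over the 6 members past the filter was 0.47, against 0.15 over all 10195 genes. After GC removal these medians were 0.20 and 0.14. That shift of all genes was 0.18 for OSKM and 0.17 for G3SKM against empty vector, and log2 ratios here are not corrected for it.

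Markers moved in the same comparison. The summed level of 4 smooth muscle markers was 680 exon-length RPKM in OSKM, 855 in G3SKM, 979 in SKM and 2930 in empty vector, and that of 12 fibroblast markers was 998, 986, 1727 and 2427 in the same order. Keratinocyte markers summed to 64.9 in OSKM, 81.3 in G3SKM, 129 in SKM and 1.28 in empty vector, where Krt1 and Krt15 were listed at 0. Endothelial markers summed to 3.33, 1.01, 0.643 and 0.381 in the same order. Skeletal muscle markers summed to 19.1 in OSKM, 18.3 in G3SKM, 29.7 in SKM and 44.5 in empty vector, and cartilage and bone markers to 99.4, 98.7, 129 and 210.1 in the same order. These sums do not describe each marker. On the exon-length scale OSKM against empty vector had 9 of 12 fibroblast markers lower, but Dcn and Lum higher. Over all genes 4.92% were lower and 8.92% higher. Bglap, of the cartilage and bone list, was called higher in all 3 factor-treated groups and Spp1 lower. Of 4 keratinocyte markers past the filter, 3 were called higher in each, Krt14, Krt17 and Krt6a. The part of these cell states in the binding protein values was not tested.

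**Figure D3:**
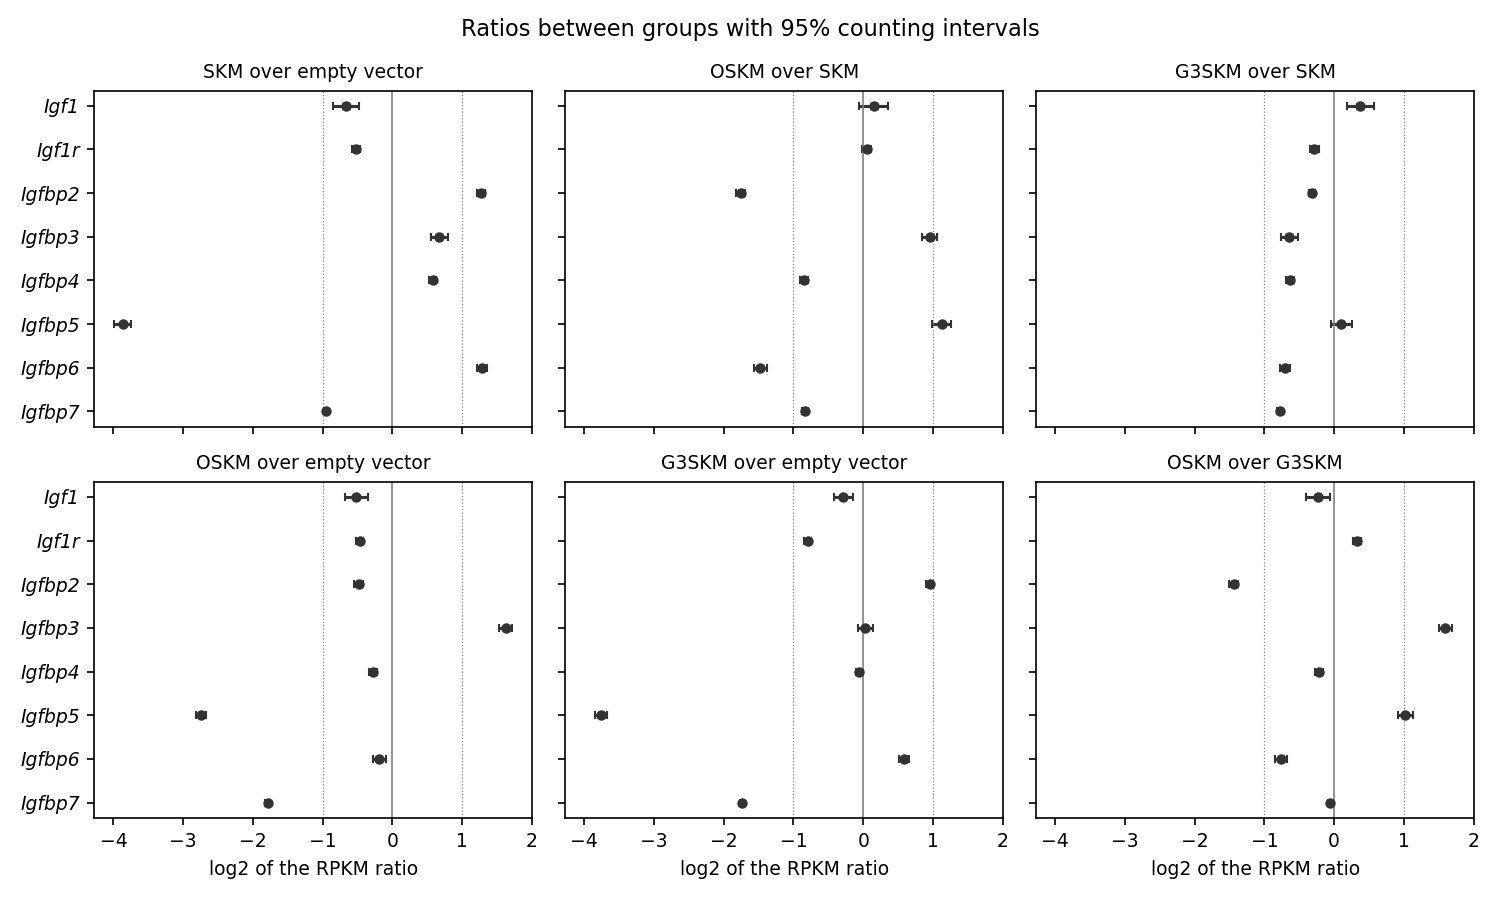
Log2 of the RPKM ratio of the 8 members (horizontal axes) in 6 comparisons, with 95% counting intervals and dotted lines at -1 and 1. Igfbp5 lies left of -1 in the 3 comparisons with empty vector, and Igfbp3 lies right of 1 in OSKM over empty vector and OSKM over G3SKM.

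OSKM against SKM compares the sets with and without OCT4, whose gene Pou5f1 was at 3.69 RPKM in OSKM and 0.297 in SKM. The shared factors were not at equal levels, with Sox2 at 110 RPKM in OSKM, 70.7 in G3SKM and 187 in SKM, Klf4 at 13.9, 8.55 and 19.3, and Myc at 10.5, 6.31 and 11.9 in the same order. Differences from SKM therefore cannot be told apart from differences in the shared factors. On the deposited scale 2 of 6 members past the filter were lower, Igfbp2 and Igfbp6, and none was higher, where 1.64% of all genes tested were lower and 2.55% higher. Igfbp2 was at 1.27 RPKM in OSKM and 4.28 in SKM, 3.38-fold lower (3.23 to 3.53). Igfbp6 was at 3.996 RPKM in OSKM and 11.1 in SKM, 2.78-fold lower (2.61 to 2.96). Both sit on the GC-rich side where genes as a whole were lower in OSKM than in SKM. Their log2 ratios of -1.22 and -1.28 moved to -0.76 and -0.81 after removal of the GC trend, under the rule, where 1.03% of all genes were lower and 0.992% higher. With both corrections, exon length and GC, Igfbp2 passed again at -1.14 and Igfbp6 did not, at -0.83, where 1.08% of all genes were lower and 2.16% higher. On exon length alone both were lower, at -1.70 and -1.43, where 1.95% were lower.

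Igfbp3 was at 4.82 RPKM in OSKM and 2.49 in SKM, 1.94-fold higher (1.80 to 2.08). Its log2 ratio was 0.74, under the rule, and 1.09, past the rule, with exon length and GC removal together. Igfbp5 was at 1.33 RPKM in OSKM and 0.611 in SKM, 2.18-fold higher (1.98 to 2.40). Its log2 ratio was 0.53. Even so, its OSKM level remained far under the 8.88 RPKM of empty vector. Igfbp4 and Igfbp7 were lower in OSKM by 1.80-fold (1.73 to 1.88) and 1.79-fold (1.74 to 1.83), with log2 ratios of -0.72 and -0.62 that moved to -0.44 and -0.18 after GC removal. The median of the 6 members was -0.67, against -0.01 over all 10211 genes, and -0.31 after GC removal.

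G3SKM against SKM compares the sets with and without GATA3, and the shared factors were lower in G3SKM, as given above. Gata3 itself was at 0.571 RPKM in G3SKM and 0.0444 in SKM, under the filter. None of the 5 members past the filter was called in either direction, where 4.43% of all genes tested were higher and 1.1% lower. Igfbp3 was at 1.59 RPKM in G3SKM and 2.49 in SKM, 1.56-fold lower (1.44 to 1.70). Igfbp7 was at 2.25 RPKM in G3SKM and 3.88 in SKM, 1.72-fold lower (1.68 to 1.76). Its log2 ratio of -0.58 moved to -0.17 after GC removal, and that of Igfbp3 from -0.43 to -0.28. Igfbp4 was at 4.69 RPKM in G3SKM and 7.27 in SKM, 1.55-fold lower (1.49 to 1.61), and its log2 ratio of -0.54 moved to -0.29. Igfbp6 was at 6.80 RPKM in G3SKM and 11.1 in SKM, 1.63-fold lower (1.56 to 1.72). For Igfbp6 the log2 ratio of -0.63 moved to -0.14 after GC removal. Igfbp2, at 3.44 RPKM in G3SKM and 4.28 in SKM, had a log2 ratio of -0.25 that turned to 0.17 after GC removal. Igfbp5 was at 0.655 RPKM in G3SKM and 0.611 in SKM, a ratio of 1.07 whose interval includes no change (0.968 to 1.19). OSKM against SKM and G3SKM against SKM share the SKM values.

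**Figure D4:**
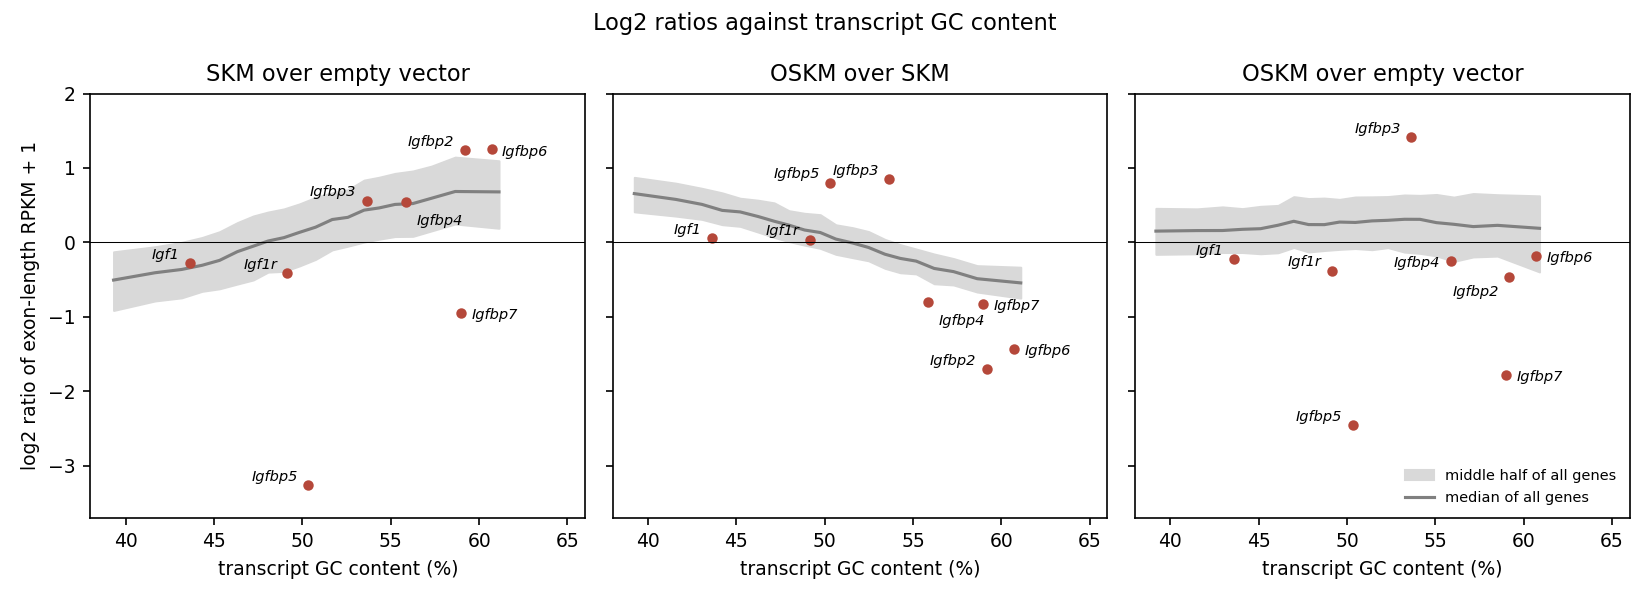
Log2 ratio of exon-length RPKM + 1 (vertical axis) against transcript GC content in percent, for the 8 members (points) and all genes (line, median; band, middle 50% in each of 20 GC bins). The median line rises with GC in SKM over empty vector, falls in OSKM over SKM and is nearly level in OSKM over empty vector, where Igfbp3 at 1.41, Igfbp7 at -1.78 and Igfbp5 at -2.45 lie farthest from the band.

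Compared with empty vector directly, which leaves out the SKM values, OSKM had 1 of 6 members higher and 2 lower. Of all genes tested 4.82% were higher and 4.16% lower. Igfbp3 was at 4.82 RPKM in OSKM and 1.56 in empty vector, 3.09-fold higher (2.90 to 3.30). Igfbp5 was at 1.33 RPKM in OSKM and 8.88 in empty vector, 6.67-fold lower (6.34 to 7.02). Igfbp7 was at 2.17 RPKM in OSKM and 7.49 in empty vector, 3.45-fold lower (3.38 to 3.53). These 3 were also called on the exon-length scale, where 8.92% of all genes were higher and 4.92% lower, and after GC removal, where 4.51% were higher and 4.19% lower. The other members past the filter lay near empty vector, with log2 ratios of -0.15 for Igfbp6, -0.22 for Igfbp4 and -0.29 for Igfbp2.

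G3SKM against empty vector had no member higher and the same 2 members, Igfbp5 and Igfbp7, lower of 6, where 7.11% of all genes tested were higher and 3.75% lower. Igfbp5 was at 0.655 RPKM in G3SKM and 8.88 in empty vector, 13.6-fold lower (12.8 to 14.4). Igfbp7 was at 2.25 RPKM in G3SKM and 7.49 in empty vector, 3.32-fold lower (3.26 to 3.39). Igfbp2 was at 3.44 RPKM in G3SKM and 1.77 in empty vector, 1.94-fold higher (1.88 to 2.00). Its log2 ratio was 0.68, under the rule. Igfbp3 differed little, at a ratio of 1.02 whose interval includes no change (0.947 to 1.11). The comparisons with empty vector share its values, so the common fall of Igfbp5 and Igfbp7 rests on the same empty vector column.

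Between both 4-factor sets, a comparison chosen after the data were seen, OSKM had Igfbp3 higher and no member lower of 6, where 0.724% of all genes tested were higher and 2.25% lower. Igfbp3 was at 4.82 RPKM in OSKM and 1.59 in G3SKM, 3.02-fold higher (2.83 to 3.23). Igfbp2 was at 1.27 RPKM in OSKM and 3.44 in G3SKM, 2.71-fold lower (2.60 to 2.83), just under the rule at -0.97 on the deposited scale and past it at -1.39 on the exon-length scale, where 1.91% of all genes were lower and 1.51% higher. Igfbp5 was 2.03-fold higher in OSKM (1.88 to 2.19) and Igfbp6 1.70-fold lower (1.60 to 1.81), both under the rule. Igfbp7 differed by a ratio of 0.963 (0.938 to 0.989). The log2 ratio of Igfbp3 was 1.17 before and 1.16 after GC removal. Here too the levels of Sox2, Klf4 and Myc differed, all being higher in OSKM. A difference between OCT4 and GATA3 therefore cannot be told apart from one in the shared factors.

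Profiles over the 4 groups were compared with those of 2681 protein-coding genes reaching 5 RPKM in any group, by Euclidean distance between centred log2(RPKM + 1) values, for the 3 members with the widest range. Nearest to Igfbp5 were the serotonin receptor gene Htr1b (0.127), the thrombin receptor gene F2r (0.305) and Fibin (0.310). Htr1b was at 5.61 RPKM in OSKM, 3.41 in G3SKM, 3.69 in SKM and 28.6 in empty vector. Nearest to Igfbp7 were the tubulin gene Tubb6 (0.0921), the filamin gene Flnc (0.0939) and Sertad1 (0.0967). Nearest to Igfbp6 were Ppp1r14a (0.131), Sap25 (0.190) and H2afj (0.215), all highest in SKM. The profiles were taken without GC removal, and GC-rich genes as a whole stood higher in SKM. The GC content of the nearest genes was not examined. With 4 values per gene the nearest profiles are descriptions of these libraries.

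Other genes of the IGF axis were taken from a list of ligands, receptors, partners, proteases and signalling genes, 48 of which were in the tables. On the exon-length scale, where 41 passed the filter, SKM against empty vector had 3 higher and 4 lower, against 11.9% and 7.15% of all genes. OSKM against empty vector had 2 higher and 3 lower, against 8.92% and 4.92%, and G3SKM against empty vector 1 higher and 5 lower, against 10.2% and 4.87%. In OSKM against SKM and in G3SKM against SKM none of the list was called, of 41 and 40 past the filter, where 3.99% and 4.07% of all genes were higher and 1.95% and 1.03% lower. After GC removal 1 of the list, Foxo4, was higher in OSKM than in SKM, where 2.16% of all genes were higher with exon length and 0.992% without. On the deposited scale 17 passed in SKM against empty vector, with Stc2 higher and Igf2 lower, where 8.88% of all genes were higher and 5.98% lower.

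Among the ligands, Igf2, the fetal growth factor, was at 18.0 RPKM in OSKM, 23.9 in G3SKM, 27.1 in SKM and 81.2 in empty vector. It fell 4.51-fold in OSKM (4.45 to 4.58), 3.40-fold in G3SKM (3.36 to 3.43) and 2.996-fold in SKM (2.96 to 3.04) against empty vector. The exon-length level of Igf2 was 50.5 RPKM in OSKM, 67.1 in G3SKM, 76.0 in SKM and 228 in empty vector, above that of Igf1 in every group. Igf2r, the receptor that clears IGF2, was 1.58-fold lower in OSKM (1.55 to 1.62), 1.75-fold lower in G3SKM (1.71 to 1.79) and 1.46-fold lower in SKM (1.42 to 1.497) than in empty vector, under the rule. The insulin receptor gene Insr was at 0.319 RPKM in OSKM, 0.242 in G3SKM, 0.219 in SKM and 0.186 in empty vector, and the adaptor gene Irs1 at 0.544, 0.345, 0.368 and 0.412 in the same order. Neither reached the filter on the deposited scale. Igfbp1, the family member not among the 8, was listed at 0 in the factor-treated groups and at 0.00378 RPKM in empty vector.

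Both protease genes Pappa and Htra1 were called lower on the exon-length scale in all 3 factor-treated groups. Pappa, whose protease cuts IGFBP4 and IGFBP5, was at 1.86 exon-length RPKM in OSKM, 1.85 in G3SKM, 1.64 in SKM and 7.93 in empty vector, with log2 ratios of -1.65, -1.65 and -1.76 against empty vector on that scale. Htra1, a secreted serine protease with an IGFBP-like domain, was at 1.11 RPKM in OSKM, 0.903 in G3SKM, 1.20 in SKM and 3.40 in empty vector. It was called lower in OSKM and in G3SKM, and in SKM missed the rule on the deposited scale at a log2 ratio of -0.996. Stc2, a secreted inhibitor of the PAPP-A protease, was higher, at 2.20 RPKM in OSKM, 2.20 in G3SKM, 2.38 in SKM and 0.491 in empty vector. Its folds over empty vector were 4.49 (4.12 to 4.90) in OSKM, 4.48 (4.13 to 4.88) in G3SKM and 4.84 (4.42 to 5.29) in SKM. The values of Stc2 in the 3 factor-treated groups lay close together.

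In the signalling part, Foxo4, a transcription factor held back by AKT, was at 5.07 RPKM in OSKM, 1.67 in G3SKM, 2.48 in SKM and 1.46 in empty vector. It was 3.47-fold higher in OSKM than in empty vector (3.23 to 3.74) and 3.04-fold higher than in G3SKM (2.82 to 3.26), both past the rule. Against SKM it was 2.05-fold higher in OSKM (1.89 to 2.22). That log2 ratio of 0.81 was under the rule, but passed it at 1.11 after GC removal and at 1.32 with exon length as well. Ghr, the growth hormone receptor that drives Igf1 in liver, was called lower on the exon-length scale in G3SKM at -1.09 and in SKM at -1.52, and stood at -0.77 in OSKM. Grb10, an adaptor that restrains insulin and IGF receptors, was called lower on that scale in G3SKM alone, at -1.06, and stood at -0.53 in OSKM and -0.84 in SKM. The difference between these groups was not tested. Stat5a at 1.11 and Foxo3 at 1.001 were called higher in SKM on the exon-length scale and fell under the rule after GC removal, at 0.72 and 0.52.

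Outside the members, 13 listed genes encode proteins with an IGFBP domain. Htra1, Igfbp1 and Igfbpl1 are also on the IGF-axis list, so the calls of Htra1 count in both lists. On the deposited scale 7 of the 13 passed the filter in each comparison with empty vector. In OSKM 4 were lower, in G3SKM 4 and in SKM 3, none was higher, and the medians were -1.06, -1.21 and -0.996. Over all genes tested 4.16%, 3.75% and 5.98% were lower in the same order, with medians of 0.18, 0.17 and 0.15. After GC removal 4 were lower in SKM, with Htra1 at -1.24, where 4.41% of all genes were lower. The matricellular gene Ccn4 was at 1.24 RPKM in OSKM, 1.82 in G3SKM, 1.35 in SKM and 11.99 in empty vector. Its fall was 9.67-fold in OSKM (9.31 to 10.04), 6.61-fold in G3SKM (6.43 to 6.79) and 8.91-fold in SKM (8.55 to 9.29). Ccn2, a YAP and TEAD target in fibroblasts, had log2 ratios against empty vector of -3.18 in OSKM, -3.02 in G3SKM and -2.99 in SKM. Ccn1 stood at -2.47 in OSKM, -2.30 in G3SKM and -2.11 in SKM. On the exon-length scale Crim1 was lower in all 3 as well, at -1.40 in OSKM, -1.62 in G3SKM and -1.39 in SKM. None of the 13 was called in OSKM against SKM, in G3SKM against SKM or in OSKM against G3SKM. Only 6 passed the filter in each on the deposited scale, and 9 on exon length. On the deposited scale 2.55%, 4.43% and 0.724% of all genes were higher in the same order, and 1.64%, 1.1% and 2.25% lower. At such shares a lack of calls among so few genes is not particular to this list.

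**Figure D5:**
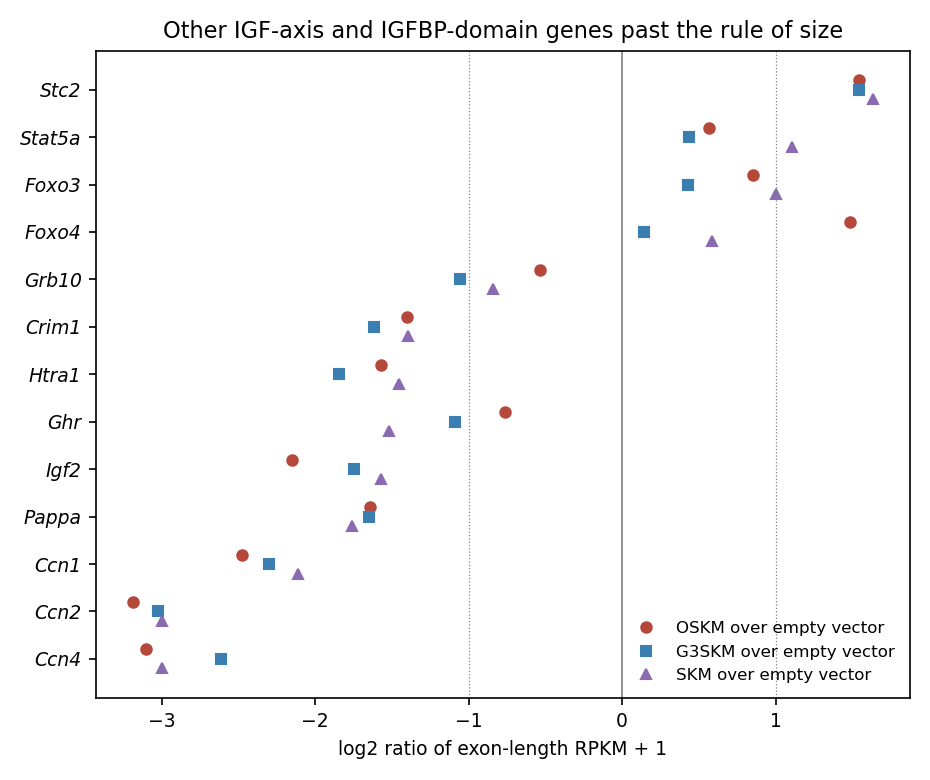
Log2 ratio of exon-length RPKM + 1 against empty vector (horizontal axis) for the IGF-axis and IGFBP-domain genes past the rule of size in at least 1 of 3 comparisons, with dotted lines at -1 and 1. Stc2 lies right of 1 in all 3 groups, and Ccn1, Ccn2, Ccn4, Crim1, Htra1, Igf2 and Pappa lie left of -1 in all 3.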

How the data were processed

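The authors' deposited values are RPKM per gene, per the file headers, and each of 3 deposited tables adds a log2 ratio, which recomputation matched to within 0.0017. Alignment used TopHat 1.3.0 and mm9, per the submitters' processing notes. For the read counter, the annotation and the pooling of replicates, the answer is not given in the sources used here. Entries of 0.001 were set to 0. The SKM column was identical in the 3 tables (largest difference 0), so columns of different tables were compared.

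Symbols, spans, exon lengths and GC came from GENCODE M21 (GRCm38), which covered 91.0% of 27597 genes, and no coordinates of the values are given. Values multiplied by gene span fell within 0.05 of whole reads for 74.7% to 76.7% of genes with up to 1000 reads. This gave depth and reads. For 4 members (Igfbp2, Igfbp3, Igfbp5 and Igfbp6) reads were whole in every group, and for the other 4 they are approximate. An overlap of 85 bases with Polr2b was found for Igfbp7. PCR reads are not independent molecules, so intervals are too narrow.

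Members and lists were chosen with earlier results of these data known. Named genes were all members, listed genes past the rule (at most 4 per direction for the IGF axis and 3 for IGFBP-domain genes), Igf2, Igf2r, Insr, Irs1 and the nearest profiles. Listed genes past the rule only on the exon-length scale, and Igfbp1, were added after their values were seen. Alternatives were pseudocounts of 0.1 and 5 RPKM, no filter, a filter at 5 RPKM, a rule of 2, a trimmed mean (30% of ratios, 5% of levels), median centring, exon length, GC removal in 20 bins, both together, 0.001 kept and leaving out SKM. The procedure was tested only on simulated data with large changes planted in well-expressed genes, which does not cover smaller changes or low values. Python 3.11.15, pandas 2.3.3, numpy 2.4.6, SciPy 1.17.1 and matplotlib 3.10.9 were used.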

Additional observations from a re-analysis of the deposited data

Results flagged for a closer look

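Igfbp3 lay on opposite sides of SKM in the sets with OCT4 and with GATA3. It was 1.94-fold higher in OSKM than in SKM and 1.56-fold lower in G3SKM than in SKM, and both counting intervals exclude no change. The log2 ratios of 0.74 and -0.43 were under the rule, and after GC removal they were 0.88 and -0.28. With exon length as well they were 1.09, past the rule, and -0.31. In G3SKM against SKM the 5 members past the filter had a median log2 ratio of -0.54, so a fall there was not particular to Igfbp3. Both comparisons share the SKM value, and OSKM over G3SKM, which does not use it, was 3.02-fold (2.83 to 3.23). Sox2, at 110 RPKM in OSKM, 70.7 in G3SKM and 187 in SKM, and Klf4, at 13.9, 8.55 and 19.3 in the same order, also differed, so the added factor and the shared ones cannot be told apart. With 1 value per group the difference was not tested.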

How the results depend on the processing

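No paired analysis was possible because each group has 1 column, which holds both replicates combined. Counts of members called were compared in 136 cases, and 104 stayed within 1.5 times the main count, which does not say that the genes stayed the same. Without the SKM library, against empty vector, OSKM again had 2 lower, but Igfbp5 and Igfbp7 in place of Igfbp2 and Igfbp6. Some of the 104 cases could not have moved. With 1 RPKM added, a log2 ratio of 1 needs 1 RPKM in a group, so dropping the filter could change no call. Keeping the deposited entry for no reads could not change member counts either, since every member had reads in every group. The 104 therefore include cases fixed in advance and overstate how far the counts withstood the alternatives. The other 32 were as follows. In SKM against empty vector, 1 was higher, Igfbp6. It became 2 with a pseudocount of 0.1 RPKM and on exon length, and 0 with a pseudocount of 5 RPKM, a rule of 2, trimmed mean scaling, median centring, GC removal, and exon length with GC removal. The 1 lower became 2, with Igfbp7, under GC removal with and without exon length. In OSKM against SKM, 0 higher became 1 with a pseudocount of 0.1 RPKM (Igfbp5), with exon length and GC removal (Igfbp3) and against empty vector without the SKM library (Igfbp3). The 2 lower became 0 with a pseudocount of 5 RPKM, a rule of 2 and GC removal, and 1 with a filter at 5 RPKM (Igfbp6) and with exon length and GC removal (Igfbp2). In G3SKM against SKM, 0 lower became 2 against empty vector without the SKM library. In OSKM against empty vector, 1 higher became 0 with a pseudocount of 5 RPKM, a filter at 5 RPKM and a rule of 2. The 2 lower became 1, Igfbp5, with a pseudocount of 5 RPKM and a rule of 2, as they did in G3SKM against empty vector. In OSKM against G3SKM, 1 higher became 0 with a pseudocount of 5 RPKM, a filter at 5 RPKM and a rule of 2, and 0 lower became 1, Igfbp2, with a pseudocount of 0.1 RPKM and on exon length with and without GC removal. Igfbp5 was called lower in all 3 comparisons with empty vector under each alternative run. Over all genes, the counts also moved by over 1.5 times. In SKM against empty vector 905 were higher, with a range of 100 to 1757 over the alternatives, and 610 lower, with a range of 48 to 1103. The causes of these changes were not tested. With no replicate spread, depth limits only the counting error, which was widest for Igf1.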
